A study of Rattus norvegicus with 9 samples.

Results

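Transcript levels of 9 genes of the Hippo pathway were read in cultured heart muscle cells of newborn rats. The genes are Nf2, Stk3, Stk4, Sav1, Lats1 and Lats2, which hold the pathway's effectors in check, and Yap1, Wwtr1 and Tead1, which carry its output to the genome. They were taken by symbol from the deposited table: each symbol matched 1 row, so 9 of 14636 genes are described. The study's libraries are 9, in 3 groups of 3. All libraries were, per the labels, from primary cardiac myocytes of 2-day-old Sprague Dawley rats, with no allele or transgene named. The cells were purified on Percoll, grown with 15% serum and transfected 16 h later. The groups received siRNA against Llgl1 and Llgl2 together (Llgl1/2 siRNA), siRNA against Yap, or a universal negative control siRNA, and RNA was taken 48 h after transfection. Per the labels, 2 different siRNAs were used for the targeted gene, each at 25 nM. Whether the Llgl1/2 group received more siRNA in all, having a pair of targets, is not stated. The labels do not say that libraries of a group came from separate cultures, so the p-values reflect spread among the libraries at hand, part or all of which may be technical.

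In the Hippo pathway, the kinases MST2 and MST1 (genes Stk3 and Stk4), with the scaffold SAV1, activate the kinases LATS1 and LATS2. Merlin, the product of Nf2, helps bring LATS to the membrane for that step. LATS phosphorylates the coactivators YAP and TAZ (gene Wwtr1), which then leave the nucleus or are degraded. Unphosphorylated YAP and TAZ bind TEAD factors on DNA. In the heart the pathway is known for limiting myocyte proliferation around birth. Lats2 and the angiomotin gene Amotl2 are known as targets of YAP that act back on it. Much of this control acts on proteins and phosphorylation, which RNA levels do not show.

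The values are FPKM, fragment counts scaled to transcript length and library size, which are per length and so can be set beside each other between genes. Their sum ran from 572884 to 620119 per library, and 12703 to 12831 genes were above 0. The values carry no read totals, so the depth of each library is unknown. The 15 working cardiomyocyte markers in the table all passed the filter below, and Tnnt2, which encodes cardiac troponin T, was the highest. Llgl1 was at 11.93 to 12.38 FPKM in the controls and 4.65 to 4.76 after Llgl1/2 siRNA, and Llgl2 at 12.04 to 14.92 and 6.51 to 7.62, so both siRNA targets were lowered but still present. After Yap siRNA, Llgl1 was at 7.14 to 9.88 and Llgl2 at 8.11 to 12.01, also below the controls in every library, and the part of this in the comparisons of the knockdowns was not tested. Tests below are limma's, on log2(FPKM + 1), fitted over the 10789 genes that reached 1 FPKM in 3 or more libraries. All 9 members passed that filter. A gene is called at a Benjamini-Hochberg adjusted p under 0.05. The folds of low genes are understated on that scale.

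Promoters of the members are shown because TEAD factors, the partners of YAP and TAZ, read DNA motifs. RefSeq's table for the GRCr8 assembly gave 300 bases, from 250 before to 50 after a start site, for 6 of the 9 genes: Yap1, Wwtr1, Sav1, Stk4, Lats1 and Nf2. The motifs searched on both strands were the TEAD core CATTCC, the muscle M-CAT element CATTCCT, which contains it, the AP-1 site TGANTCA and the E-box CACGTG. The sequences shown are those of the members with a TEAD core, Yap1 and Sav1, and of those called against the control after both siRNAs, Wwtr1 and Nf2. Each is printed on the gene's strand with any motif in capitals.
Yap1 (GRCr8 chr8:13451388-13451687, minus strand): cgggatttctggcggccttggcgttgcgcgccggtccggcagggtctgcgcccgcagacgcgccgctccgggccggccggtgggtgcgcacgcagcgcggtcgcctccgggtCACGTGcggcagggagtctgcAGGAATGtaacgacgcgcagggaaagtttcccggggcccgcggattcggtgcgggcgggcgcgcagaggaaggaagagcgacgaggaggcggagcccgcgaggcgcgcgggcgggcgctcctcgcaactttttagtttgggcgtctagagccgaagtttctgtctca
Sav1 (GRCr8 chr6:94236049-94236348, minus strand): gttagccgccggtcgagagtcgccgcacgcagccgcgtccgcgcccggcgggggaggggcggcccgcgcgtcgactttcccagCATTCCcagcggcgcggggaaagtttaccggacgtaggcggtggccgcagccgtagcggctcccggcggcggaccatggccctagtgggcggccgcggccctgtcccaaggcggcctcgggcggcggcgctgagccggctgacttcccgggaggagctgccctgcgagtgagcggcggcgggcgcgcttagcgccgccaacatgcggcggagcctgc
Wwtr1 (GRCr8 chr2:143916892-143917191, minus strand): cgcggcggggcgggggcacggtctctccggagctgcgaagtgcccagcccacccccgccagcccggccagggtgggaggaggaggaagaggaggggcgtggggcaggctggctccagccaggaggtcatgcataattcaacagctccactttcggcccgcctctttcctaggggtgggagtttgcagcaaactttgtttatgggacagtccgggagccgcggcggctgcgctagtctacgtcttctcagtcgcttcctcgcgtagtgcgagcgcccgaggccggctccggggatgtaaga
Nf2 (GRCr8 chr14:83934102-83934401, minus strand): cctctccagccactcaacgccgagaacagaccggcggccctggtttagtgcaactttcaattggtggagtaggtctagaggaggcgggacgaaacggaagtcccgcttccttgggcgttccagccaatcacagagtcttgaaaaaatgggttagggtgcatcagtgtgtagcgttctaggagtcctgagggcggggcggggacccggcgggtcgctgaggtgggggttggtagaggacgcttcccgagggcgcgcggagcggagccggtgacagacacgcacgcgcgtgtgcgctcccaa

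A TEAD core was found in 2 of 6 member promoters and in 14.2% of all 33469 promoters of that length. In Yap1 it lies on the strand opposite the gene, with its first base 116 bases before the start, as part of an M-CAT element, which 5.17% of promoters held. In Sav1 it lies on the gene's strand, 167 bases before the start. Yap1 also has an E-box, 138 bases before the start, and Stk4 has an E-box 82 bases and an overlapping AP-1 site 78 bases before its start. E-boxes were in 6.42% and AP-1 sites in 7.33% of all promoters. Wwtr1, Nf2 and Lats1 held none of the motifs, and the letters of these windows do not say where TEAD binds.

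In the control libraries Yap1 was the most abundant of the 9 transcripts and Lats1 the least. Yap1 averaged 59.7 ± 4.03 FPKM (SD, n = 3), above 84.6% of tested genes, and Lats1 9.06 ± 0.801, above 36.1%. Between them stood Tead1 (41.0 ± 8.58), Wwtr1 (40.3 ± 1.40), Sav1 (39.7 ± 1.50) and Lats2 (37.2 ± 1.18), and then Nf2 (26.1 ± 1.49), Stk3 (19.0 ± 0.856) and Stk4 (13.0 ± 0.466). Neighbours in the order from Tead1 to Lats2 overlapped in their libraries, while every other pair of neighbours was separated, by mean ratios of 1.37 to 1.46. Within the pairs of paralogs the balance differed at the RNA level. Lats2 stood above Lats1 by a ratio of 4.12 ± 0.224, and Stk3 above Stk4 by a modest 1.46 ± 0.0728. Wwtr1 made up 40.3% ± 2.31 of the RNA of Yap1 and Wwtr1.

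**Figure D1:**
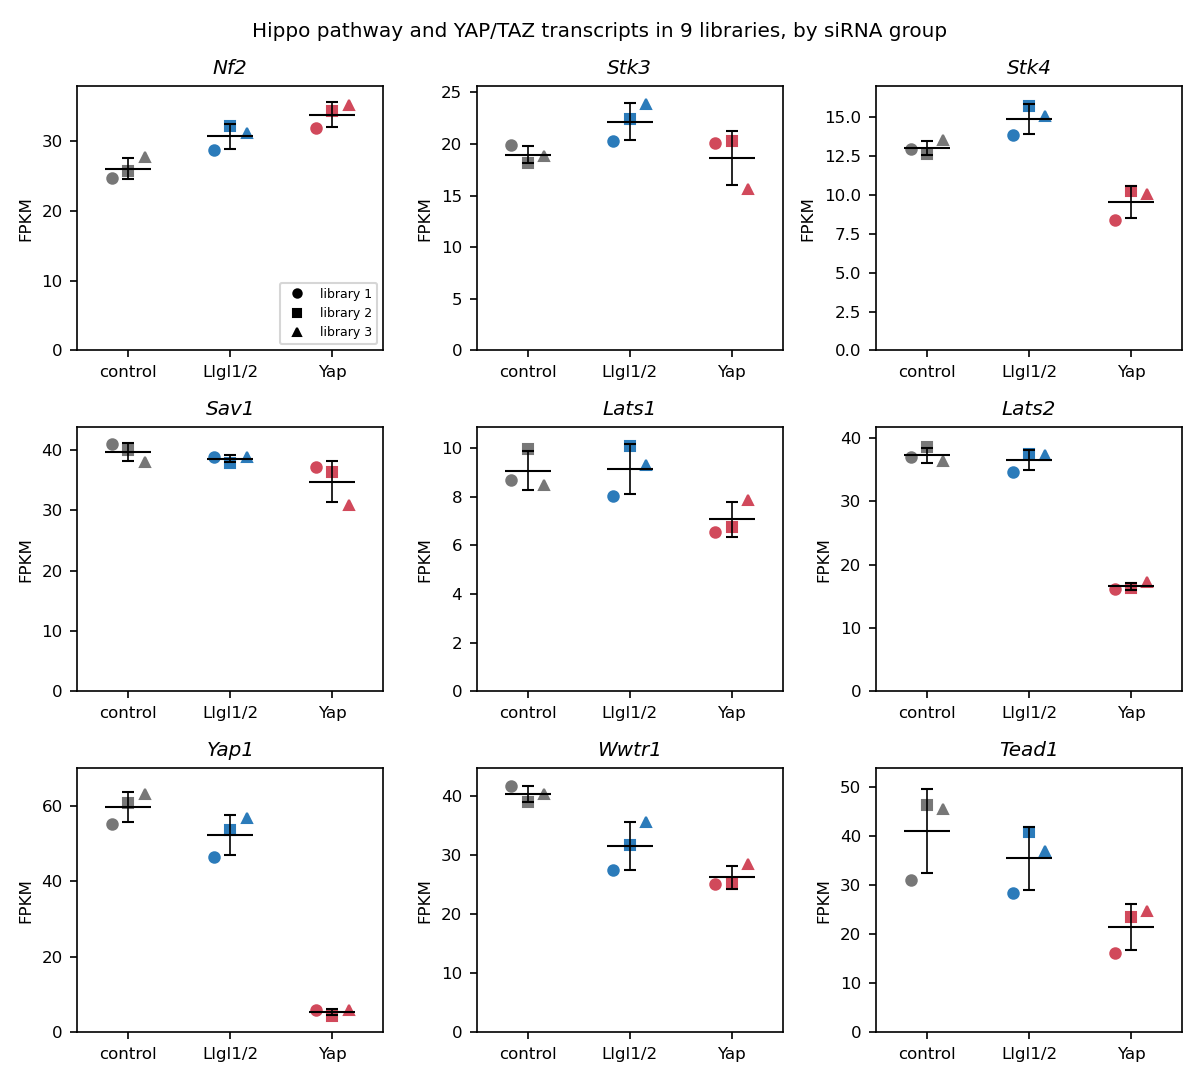
FPKM (linear axis from 0) of each of the 9 genes in the 9 libraries, by siRNA group; symbols mark the library number and black bars the mean ± SD of 3 libraries. Yap1 and Lats2 fell after Yap siRNA with no overlap, Lats2 from 36.29 to 38.56 FPKM in the controls to 16.09 to 17.22, and Tead1 shows the widest spread within groups.

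Yap siRNA lowered its target and, beside it, 5 other members: Lats2, Tead1, Wwtr1, Stk4 and Lats1. Nf2 rose, and Sav1 and Stk3 did not pass the test. Leaving out Yap1, the target of the siRNA, 6 of 8 members were called, 5 lower and 1 higher, where 48.0% of all tested genes were called, 27.5% lower and 20.5% higher. Of these 8, 6 were lower and 1 was higher in every treated library than in any control, as were 31.6% and 23.3% of all tested genes. The median log2 change was -0.36 over these 8 genes and -0.06 over all tested genes. Both knockdowns were compared with the same 3 control libraries, so their results are not independent.

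Among the effectors, Yap1 was at 55.26, 60.80 and 63.11 FPKM in the 3 control libraries and at 5.90, 4.43 and 6.0 after Yap siRNA, 0.0911 of the control mean, which checks the labels. Its paralog Wwtr1, the TAZ gene, was at 41.66, 38.87 and 40.32 in the controls and at 25.14, 25.10 and 28.46 after Yap siRNA. All treated libraries were below all controls, and Wwtr1 fell by 0.60 ± 0.09 (SE) on the log2 scale (limma, adjusted p = 0.00014), a change reached or passed in size by 15.8% of tested genes. Tead1, which encodes the DNA-binding partner of both, was at 31.07, 46.31 and 45.52 in the controls and at 16.06, 23.53 and 24.73 after Yap siRNA. The groups again did not overlap, and library 1 was the lowest of each group. Tead1 fell by 0.90 ± 0.20 (adjusted p = 0.0035).

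Both LATS kinase genes, whose products phosphorylate YAP and TAZ, fell. Lats2 was at 36.87, 38.56 and 36.29 FPKM in the controls and at 16.09, 16.35 and 17.22 after Yap siRNA, and it fell by 1.12 ± 0.07 on the log2 scale (limma, adjusted p = 6.6e-08), to 0.444 of the control mean. This was the steepest change among the members other than Yap1, and 2.76% of tested genes changed by at least as much. Lats1 was at 8.71, 9.98 and 8.50 in the controls and at 6.57, 6.77 and 7.89 after Yap siRNA. Its libraries did not overlap and it fell by 0.32 ± 0.11 (adjusted p = 0.029), but 42.6% of tested genes changed by at least as much. The Lats1 call was lost with quantile normalization (adjusted p = 0.0959) and without control library 1 (0.0502) or 2 (0.123) or Yap siRNA library 1 (0.0920) or 2 (0.0718).

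Upstream of LATS, 1 member rose, 1 fell and 2 did not pass. Nf2, the merlin gene, was at 24.78, 25.70 and 27.70 FPKM in the controls and at 31.91, 34.41 and 35.26 after Yap siRNA, higher in every treated library. It rose by 0.37 ± 0.08 (limma, adjusted p = 0.0017). Stk4, which encodes MST1, was at 12.94, 12.61 and 13.53 in the controls and at 8.39, 10.28 and 10.05 after Yap siRNA, and fell by 0.41 ± 0.10 (adjusted p = 0.0031). Its paralog Stk3, which encodes MST2, was at 19.89, 18.19 and 18.86 and at 20.13, 20.25 and 15.63, with a log2 change of -0.03 and a 95% interval of -0.25 to 0.19. The groups overlapped for Stk3, and its sign turned under quantile normalization and median-ratio scaling. Sav1, the scaffold of the MST kinases, was at 40.98, 39.94 and 38.03 in the controls and at 37.07, 36.29 and 30.81 after Yap siRNA. Every treated library was below every control, and the log2 change was -0.19 ± 0.08 (adjusted p = 0.064). Sav1 passed without Yap siRNA library 1 (adjusted p = 0.0423) or 2 (0.0475).

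**Figure D2:**
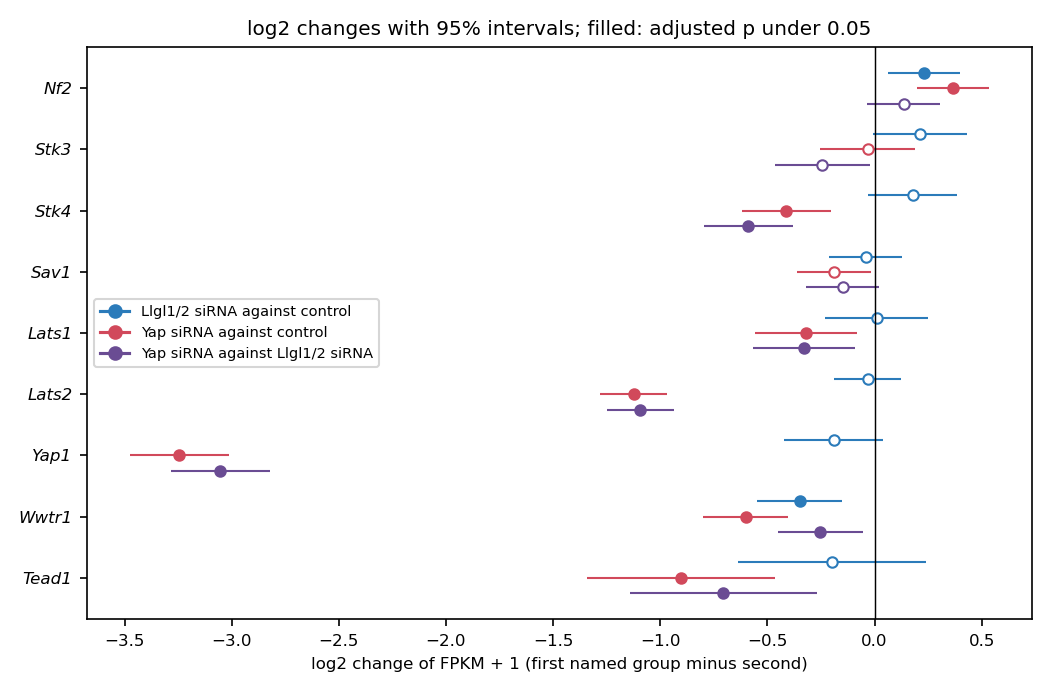
Log2 change of FPKM + 1 for each of the 9 genes (points) with its 95% interval from limma (lines), in the comparisons of each siRNA with the control and of both siRNAs directly; filled points passed an adjusted p of 0.05. Intervals for Lats2 and Yap1 lie far below 0 after Yap siRNA and include 0 after Llgl1/2 siRNA.

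After Llgl1/2 siRNA 2 of the 9 members were called, Wwtr1 lower and Nf2 higher, where 40.2% of all tested genes were called, 22.1% higher and 18.1% lower. Over all 9 the median log2 change was -0.03, and over all tested genes it was 0.03. Wwtr1 was at 27.42, 31.72 and 35.53 FPKM, below the controls in every library like 24.0% of all tested genes, and fell by 0.35 ± 0.09 on the log2 scale (limma, adjusted p = 0.0087). Nf2 was at 28.71, 32.25 and 31.27, above the controls in every library, and rose by 0.23 ± 0.08 (adjusted p = 0.032). The Nf2 call was lost with median-ratio scaling (adjusted p = 0.0606) and without control library 1 (0.119) or 2 (0.0881) or Llgl1/2 siRNA library 2 (0.121) or 3 (0.0956). Wwtr1 stayed called in all 17 alternatives, with adjusted p-values up to 0.043.

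The other 7 members did not pass after Llgl1/2 siRNA, and the intervals show how large a change remains possible. Yap1 was at 46.51, 53.74 and 56.80 FPKM, overlapping the controls, with a log2 change of -0.19 (95% interval -0.42 to 0.04). Tead1 was at 28.38, 40.84 and 36.99, and its wide spread gives an interval of -0.64 to 0.24. Each of these libraries was below the control library of the same number. With the library number as a block Tead1 was called lower (limma, adjusted p = 0.0397), though the labels do not pair the numbers. For the LATS genes the estimates were near 0. Lats2, at 34.64, 37.46 and 37.20, had a change of -0.03 (-0.19 to 0.12), and Lats1, at 8.05, 10.07 and 9.31, a change of 0.01 (-0.23 to 0.25). Sav1, at 38.85, 37.80 and 38.81, stood at -0.04 (-0.21 to 0.13). Both MST genes were higher in every Llgl1/2 siRNA library than in any control, as were 30.1% of all tested genes, yet neither was called. Stk3 was at 20.25, 22.45 and 23.84, with a log2 change of 0.21 ± 0.10 (limma, adjusted p = 0.12). Stk4 was at 13.85, 15.72 and 15.07, with 0.18 ± 0.10 (adjusted p = 0.16).

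Compared directly, 6 members were called lower after Yap siRNA than after Llgl1/2 siRNA and none higher: Yap1, Lats2, Tead1, Stk4, Lats1 and Wwtr1. Without Yap1, the siRNA target, these are 5 of 8. In this contrast 47.0% of all tested genes were called, 19.0% higher and 28.0% lower. These were 2046 higher and 3024 lower genes, or 2569 higher and 2357 lower with median-ratio scaling. Because the control cancels, it is also the test of whether the 2 knockdowns changed a gene differently. Lats2 differed by -1.09 ± 0.07 (limma, adjusted p = 9.5e-08), Tead1 by -0.71 ± 0.20 (adjusted p = 0.014) and Stk4 by -0.59 ± 0.10 (adjusted p = 0.00025). For those 3 genes every Yap siRNA library was below every Llgl1/2 siRNA library, as for 32.9% of all tested genes. Wwtr1 fell after both knockdowns, and the difference between them was small: -0.25 ± 0.09, overlapping libraries and an adjusted p of 0.038. Its call was lost with quantile normalization (adjusted p = 0.0712), median-ratio scaling (0.126), no filter (0.0658) or only the 6 libraries compared (0.0631), and without Llgl1/2 siRNA library 2 (0.0936) or 3 (0.193) or Yap siRNA library 1 (0.106) or 2 (0.0946). Lats1, at -0.33 ± 0.11 (adjusted p = 0.026), lost its call with quantile normalization (0.0963), median-ratio scaling (0.0641) and without Llgl1/2 siRNA library 2 (0.113) or 3 (0.0744) or Yap siRNA library 1 (0.0853) or 2 (0.0655). Nf2 rose after both, and its difference between them, 0.14 with an interval of -0.03 to 0.30, did not pass (adjusted p = 0.17), though it did with median-ratio scaling (0.0413). Stk3 (-0.24 ± 0.10, adjusted p = 0.067) passed without Llgl1/2 siRNA library 1 (0.0470) or Yap siRNA library 1 (0.0495) or 2 (0.0391). Sav1 stood at -0.15 ± 0.08 (adjusted p = 0.14).

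The makeup of the paralog pairs differed between Yap siRNA and control in every library. Yap1 and Wwtr1 together gave 96.9, 99.7 and 103 FPKM in the control libraries, 73.9, 85.5 and 92.3 after Llgl1/2 siRNA, and 31.0, 29.5 and 34.5 after Yap siRNA. The sum after Yap siRNA was 0.317 of the control mean. Wwtr1 made up 40.3% ± 2.31 of the pair's RNA in the controls, 37.6% ± 0.796 after Llgl1/2 siRNA and 82.9% ± 2.02 after Yap siRNA (SD, n = 3). The RNA of the coactivators after Yap siRNA was therefore mostly TAZ RNA. Its absolute level was nonetheless lower than in the controls.

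For the kinases, Lats2 and Lats1 together gave 46.3 ± 1.98 FPKM in the controls, 45.6 ± 2.55 after Llgl1/2 siRNA and 23.6 ± 1.30 after Yap siRNA. The Lats2 to Lats1 ratio was 4.23, 3.86 and 4.27 in the controls, 4.30, 3.72 and 4.0 after Llgl1/2 siRNA, and 2.45, 2.42 and 2.18 after Yap siRNA. Lats2 stayed the more abundant of the pair in all 9 libraries. Stk3 and Stk4 together gave 32.0 ± 1.07 FPKM in the controls, 37.1 ± 2.59 after Llgl1/2 siRNA and 28.2 ± 2.44 after Yap siRNA. The Stk3 to Stk4 ratio after Yap siRNA was 2.40, 1.97 and 1.56, all above the control range of 1.39 to 1.54 but widely spread. Each of these sums and ratios was tested between groups by a 2-sided exact permutation test, 18 tests in all. With 3 against 3 libraries the exact permutation test cannot go below p = 0.1, which every quantity reached between Yap siRNA and control (adjusted p = 0.13). Between Llgl1/2 siRNA and control the coactivator sum, the Wwtr1 share and the MST sum reached it, and the other 3 quantities had exact p-values of 0.6 to 0.7. After Yap siRNA the coactivator sum and the Wwtr1 share largely restate the fall of Yap1, the siRNA target.

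**Figure D3:**
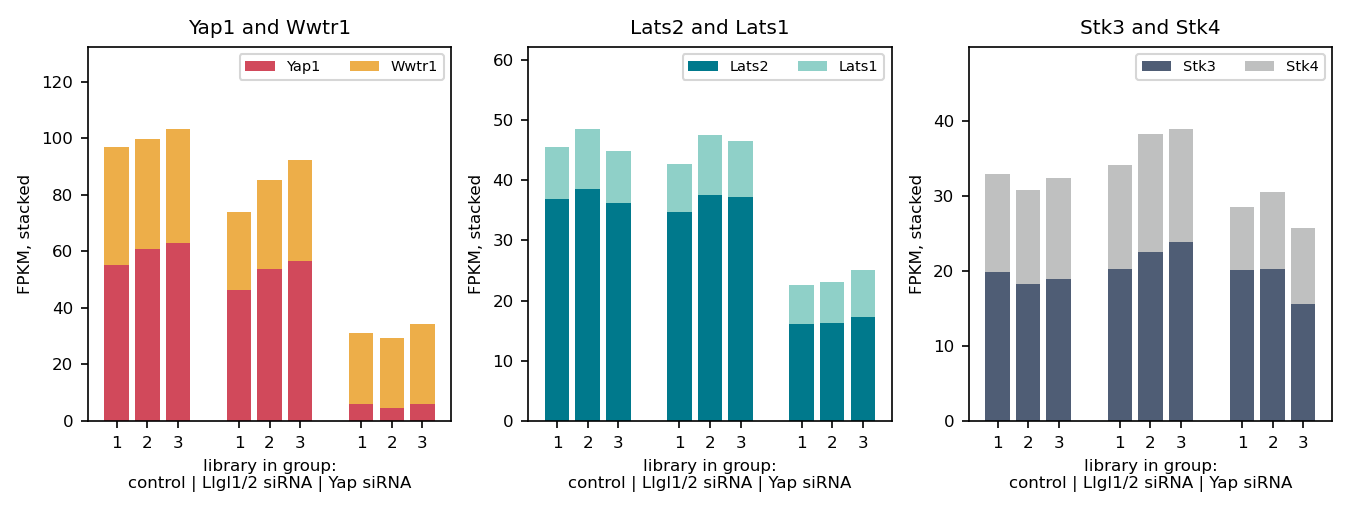
Stacked FPKM of the coactivator genes Yap1 and Wwtr1, the LATS kinase genes Lats2 and Lats1 and the MST kinase genes Stk3 and Stk4, 1 bar per library, with the 3 libraries of each siRNA group side by side. The Yap1 segment nearly vanishes after Yap siRNA and leaves bars of 29.5 to 34.5 FPKM that are mostly Wwtr1.

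The order of levels changed accordingly. After Llgl1/2 siRNA Yap1 still led, at 52.4 ± 5.28 FPKM, and Lats1 was still last. After Yap siRNA the scaffold gene Sav1 (34.7 ± 3.41) and Nf2 (33.9 ± 1.74) led, with overlapping libraries, and Yap1 (5.44 ± 0.879) was below Lats1 (7.08 ± 0.711). Lats2 dropped from a place among the genes near 40 FPKM to below Stk3 (18.7 ± 2.63) by the mean, at 16.6 ± 0.592, and the libraries of those 2 genes overlapped.

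Members also differed in how evenly they were measured. Tead1 had a within-group SD of 0.30 on the log2 scale, reached by 3.74% of tested genes, against a median of 0.13 over all tested genes. Lats2 was the steadiest, at 0.05, a spread that 97.1% of tested genes reached. In each group the library numbered 1 was the lowest for Tead1: 31.07 FPKM against 45.52 and 46.31 in the controls, 28.38 against 36.99 and 40.84 after Llgl1/2 siRNA, and 16.06 against 23.53 and 24.73 after Yap siRNA. Library 1 was also the lowest of every group for Nf2, with much smaller gaps, as it was for 854 of all 10789 tested genes (7.92%). The labels do not say what the library number stands for. With that number as a block in the fit, Tead1 was called after Llgl1/2 siRNA (limma, adjusted p = 0.0397), against 0.45 without the block. After Yap siRNA Tead1 was called either way.

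**Figure D4:**
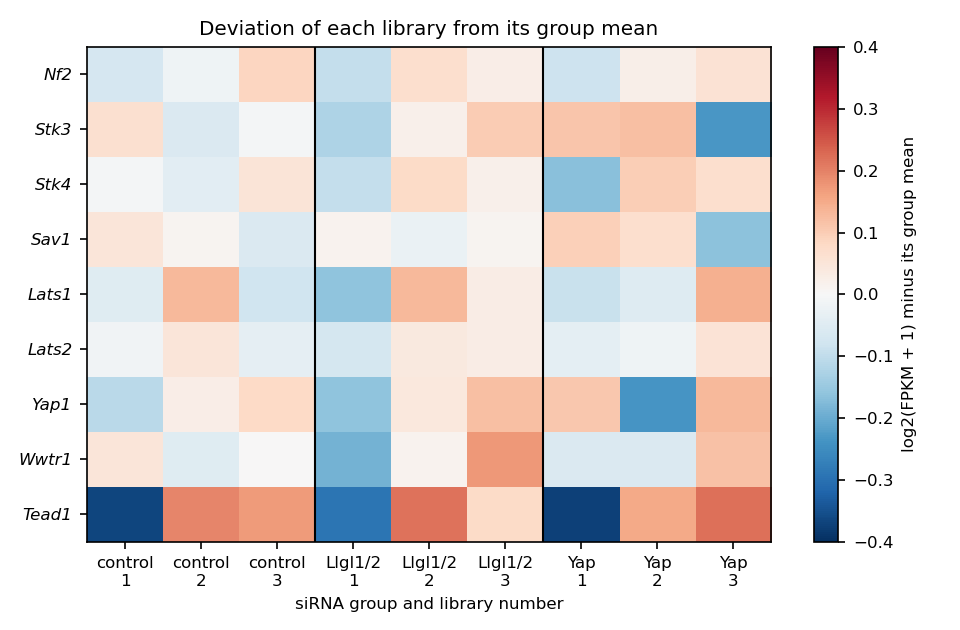
Deviation of each library's log2(FPKM + 1) from its group mean (colour scale, blue below and red above) for the 9 genes (rows) in the 9 libraries (columns, by group and library number). The Tead1 row is darkest blue in library 1 of every group, at -0.37, -0.29 and -0.37.

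The other genes of the pathway were read from lists by role, 68 tested of 88 listed. After Yap siRNA 30 fell and 9 rose, 57.4% called where 48.0% of all tested genes were called, with a median log2 change of -0.19. After Llgl1/2 siRNA 8 fell and 15 rose, 33.8% where 40.2% of all tested genes were called, with a median of 0.11. Over all tested genes 27.5% fell and 20.5% rose after Yap siRNA, and 18.1% fell and 22.1% rose after Llgl1/2 siRNA. The counts by direction below stand beside these shares. Each list as a whole is described by counts and medians only. The genes named from a list are among those with its smallest p in either comparison with the control, so their p-values are not separate support for the list.

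Of the upstream scaffolds and junction proteins, 7 of 10 tested fell after Yap siRNA and none rose, with a median of -0.54. Wwc2, a relative of the WW-domain scaffold KIBRA, went from 21.7 ± 0.510 to 12.1 ± 0.731 FPKM (-0.80 ± 0.09 SE, limma, adjusted p = 1.2e-05). The phosphatase gene Ptpn21 went from 10.7 ± 0.715 to 6.70 ± 0.445 and fell as well (limma, adjusted p = 0.00016). After Llgl1/2 siRNA 4 of these 10 rose and 1 fell, while Wwc2 and Ptpn21 did not pass. The 1 angiomotin gene in the table, Amotl2, went from 116 ± 1.44 to 57.0 ± 3.97 FPKM after Yap siRNA (-1.01 ± 0.07, adjusted p = 9.9e-08) and stood at 103 ± 3.29 after Llgl1/2 siRNA (adjusted p = 0.070).

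The MOB1 proteins bind and activate LATS. Mob1a went from 28.9 ± 2.45 to 17.0 ± 1.60 FPKM and Mob1b from 16.1 ± 0.884 to 9.0 ± 1.41 after Yap siRNA, and both fell (limma, adjusted p = 2.8e-05 and 0.00029). Mob1a also fell after Llgl1/2 siRNA, to 20.0 ± 1.40 (adjusted p = 0.00084), whereas Mob1b was at 17.7 ± 3.33 (adjusted p = 0.53). Rassf4, of a family that binds MST kinases, fell in both, by 0.63 ± 0.09 after Llgl1/2 siRNA and 0.29 ± 0.09 after Yap siRNA. Over the MOB and RASSF list, 4 of 7 fell and 1 rose in each comparison.

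Kinases that act upstream of or beside LATS had no common direction after Yap siRNA, where 5 of 18 rose and 3 fell. After Llgl1/2 siRNA 3 rose and none fell, with a list median of 0.11. Stk38l, a kinase closely related to LATS, went from 42.7 ± 4.09 to 22.8 ± 0.962 FPKM after Yap siRNA (-0.87 ± 0.08, limma, adjusted p = 1.9e-06) and was at 43.6 ± 2.34 after Llgl1/2 siRNA (adjusted p = 0.79). Of the polarity kinase genes, Mark1 rose by 0.64 ± 0.12 after Llgl1/2 siRNA and Mark4 rose by 0.32 ± 0.08 after Yap siRNA. In the STRIPAK phosphatase complex, which opposes the MST kinases, 6 of 12 fell and 1 rose after Yap siRNA, and 2 fell and 2 rose after Llgl1/2 siRNA. Strn3 and Cttnbp2nl fell in both, Cttnbp2nl from 31.8 ± 1.99 to 17.5 ± 1.30 after Llgl1/2 siRNA and to 22.3 ± 2.08 after Yap siRNA. Ppp2ca, the catalytic subunit gene, fell by 0.40 ± 0.07 after Yap siRNA and stood at -0.02 ± 0.07 after Llgl1/2 siRNA.

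Among LIM domain proteins, which can bind and inhibit LATS, 3 of 4 fell and none rose after Yap siRNA, and 1 rose and none fell after Llgl1/2 siRNA. Ajuba went from 34.4 ± 1.16 to 15.6 ± 2.23 FPKM and Zyx, the zyxin gene, from 228 ± 5.03 to 141 ± 6.38 after Yap siRNA, and both fell (limma, adjusted p = 8.6e-07 and 2.6e-06). Limd1 rose by 0.48 ± 0.09 after Llgl1/2 siRNA. Genes for the 14-3-3 proteins that hold phosphorylated YAP in the cytoplasm, and for its turnover, had 6 of 13 lower and 1 higher after Yap siRNA, and 1 lower and 2 higher after Llgl1/2 siRNA. Ywhaz fell in both, by 0.35 ± 0.07 after Llgl1/2 siRNA and 0.29 ± 0.07 after Yap siRNA. Ywhag fell by 0.40 ± 0.08 and Ywhae rose by 0.35 ± 0.08 after Yap siRNA.

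Of the other TEAD genes, Tead2 and Tead3 were in the tested list. In the controls Tead2 was at 15.8 ± 0.635 and Tead3 at 14.6 ± 0.140 FPKM, both below Tead1. Tead3 rose after both siRNAs, to 18.2 ± 0.293 after Llgl1/2 siRNA (limma, adjusted p = 0.013) and 19.0 ± 1.85 after Yap siRNA (adjusted p = 0.0038). Tead2 rose after Llgl1/2 siRNA, to 19.2 ± 1.23 (adjusted p = 0.030), and was at 16.45 ± 1.61 after Yap siRNA (adjusted p = 0.67). Vgll4, whose product competes with YAP for TEAD, stood at -0.17 ± 0.10 after Llgl1/2 siRNA and -0.24 ± 0.10 after Yap siRNA and passed in neither. Of 19 tested genes often used as YAP and TAZ targets, 16 fell and 2 rose after Yap siRNA (median -0.68), and 11 fell and none rose after Llgl1/2 siRNA (median -0.27). This list holds Lats2, Amotl2, Ajuba and Ptpn14 of the scaffold list, so its counts overlap those of the members and pathway lists above. Over all tested genes 27.5% fell and 20.5% rose after Yap siRNA (median -0.06), and 18.1% fell and 22.1% rose after Llgl1/2 siRNA (median 0.03).

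**Figure D5:**
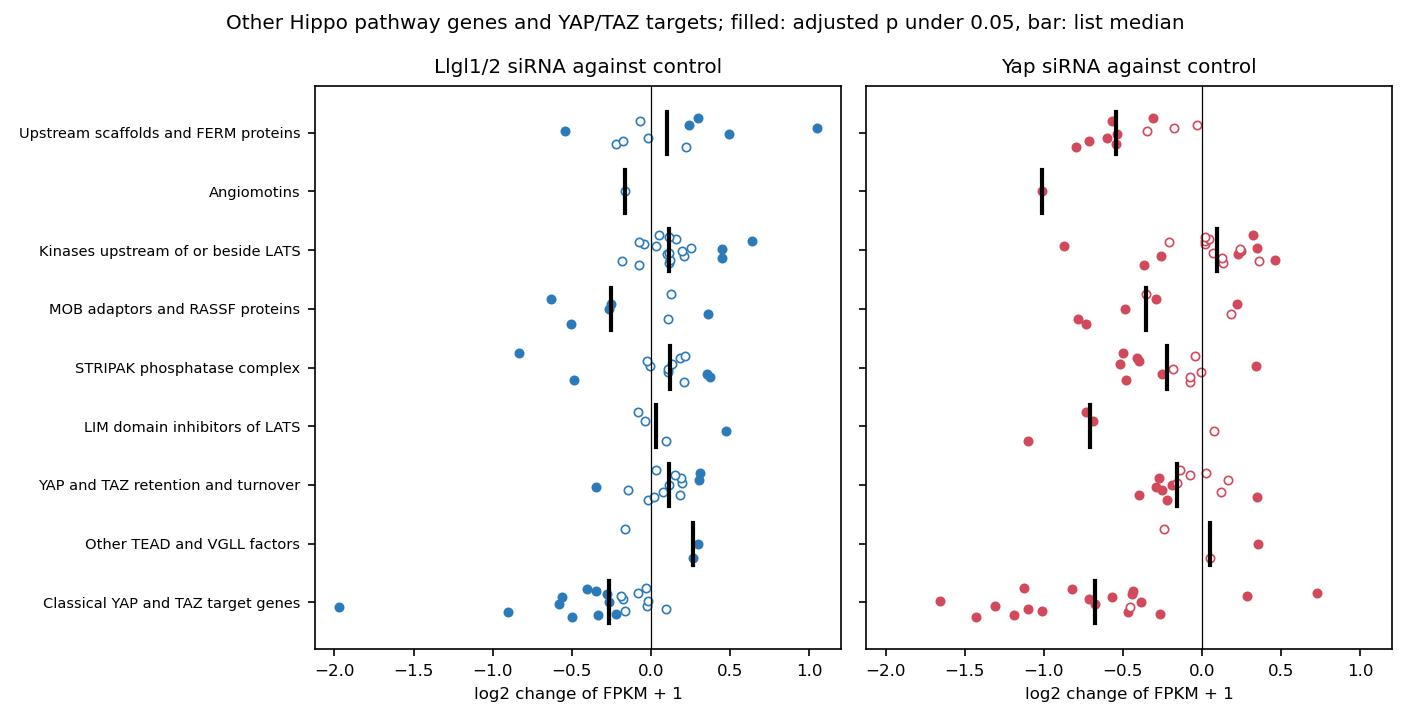
Log2 change of FPKM + 1 of each tested gene (points, filled where the adjusted p was under 0.05) in the lists of other Hippo pathway genes and of YAP and TAZ targets, after Llgl1/2 siRNA (left) and Yap siRNA (right) against the control; black bars are list medians. Medians for upstream scaffolds are 0.10 on the left and -0.54 on the right.

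Markers of several cell types moved with the same comparisons. Their counts stand beside 22.1% higher and 18.1% lower of all tested genes after Llgl1/2 siRNA, and 20.5% higher and 27.5% lower after Yap siRNA. Working cardiomyocyte markers summed to 24474 to 28274 FPKM in the controls, 29424 to 31429 after Llgl1/2 siRNA and 35220 to 38874 after Yap siRNA, with 11 of 15 called higher and 1 lower in the first comparison and 12 higher and 2 lower in the second. Endothelial markers summed to 599 to 711, 297 to 314 and 440 to 513, with 11 of 13 tested lower after Llgl1/2 siRNA and 6 lower and 1 higher after Yap siRNA. Smooth muscle and pericyte markers, led by Acta2 in the controls, summed to 3802 to 3908, 2529 to 3016 and 1568 to 1641, with 2 of 13 lower and 5 higher, and 5 lower and 6 higher. Fibroblast markers summed to 347 to 504, 318 to 405 and 394 to 488, with 3 of 11 lower and 1 higher, and 5 higher and none lower. Leukocyte markers summed to 200.1 to 257, 148 to 192 and 191 to 247, with 7 of 13 lower, and 6 lower and 2 higher, and Cd3e was at 0 in every library. Some other markers were well above 0 in the controls, with means of 88.5 ± 9.97 FPKM for Pecam1 and 92.7 ± 9.32 for Cdh5 (endothelium) and 220 ± 37.3 for Col1a1 (fibroblasts). Others of the same lists were low there. Of the fibroblast markers, Lum was at 3.01, Tcf21 at 1.16, Pdgfra at 0.897 and Dpt at 0.543, and of the endothelial ones, Vwf was at 6.10 and Robo4 at 0.993. Of the epicardial list Krt18 was the highest in the controls, at 13.4 ± 0.0755. Msln was at 6.24, Wt1 at 3.03, Krt8 at 2.36, Tbx18 at 1.70 and Aldh1a2 at 1.37. Cldn5, Fap, Krt19, Sox10 and S100b were under 1 FPKM in every library. Epicardial markers summed to 25.2 to 33.5, 44.1 to 55.3 and 10.2 to 16.0, with 3 of 6 higher, and 3 lower and 1 higher. Erythroid markers had 0 of 4 and 1 of 4 lower, and neural markers 1 of 2 higher and then none called. In these bulk samples fewer cells of a type cannot be told apart from less RNA per cell, and the part of cell makeup in the results for the 9 genes was not tested.

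Genes with the most similar profiles were found by the root mean square difference of log2(FPKM + 1), each gene centred on its control mean, over 9 libraries and 8350 other genes with a mean of at least 5 FPKM. Lats2 was closest to Zdhhc13 (a difference of 0.08), Tgm2 (0.09) and St6gal1 (0.10). In all 3 the mean after Llgl1/2 siRNA lay close to the control and the mean after Yap siRNA well below it, Tgm2 with means of 164, 157 and 79.9 FPKM in controls, Llgl1/2 siRNA and Yap siRNA. Wwtr1 was closest to Xpo4 (0.07), Cse1l (0.09) and Zfp180 (0.09), with Cse1l at means of 58.7, 46.0 and 38.4 FPKM. Tead1 was closest to Kirrel (0.11), LOC100361083 (0.11) and Atp13a3 (0.15). No gene came as close to Yap1: the nearest were LOC367195 (0.42), Tril (0.43) and Fgfr2 (0.60), with LOC367195 at means of 28.9, 22.4 and 2.21 FPKM. Yap1, the siRNA target, fell so far that 0.0371% of tested genes changed at least as much after Yap siRNA. Few genes could therefore come close to it, and these differences do not show how particular its profile is.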

How the data were processed

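Poly-A RNA of 9 libraries was sequenced by a low-input BGISEQ-500 protocol, per the labels. The deposited values are FPKM per gene and library, made by the authors and kept to 2 decimals. Bowtie2, HISAT and rn6 are listed in the submitters' processing notes; roles, versions and the counting tool are not given in the sources used here. A further column, 1 in all, repeated Llgl1/2 siRNA library 2 in 14636 rows and was not used. Relative depth was roughly estimated from the steps of low genes (38 in Llgl1/2 siRNA library 1, 2 to 9 in each other library), at 0.988 to 1.10 of that library. Only genes with nearly the same value in both libraries were used. The estimate therefore could not fall far from that library and does not show that depth was equal.

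The fit was limma 3.58.1 (R 4.3.3) with trended, robust variances on log2(FPKM + 1), over all 9 libraries, with a mean per group. The filter removed 3847 genes. Ratios and sums used exact permutation tests over libraries; the sums for the kinase pairs were added after their values were seen. Figures used matplotlib 3.10.9 and motif searches Python 3.11.15. The code was tested on simulated data. The members and lists were chosen with earlier results of these data known, and the promoter motifs after the sequences were seen. Named genes are the 9 members, up to 3 per pathway list by smallest p in either comparison with the control, and the 3 nearest profiles for Yap1, Wwtr1, Tead1 and Lats2; a gene that this rule names among the scaffolds is not reported here. Alternatives were a pseudocount of 0.1, no filter, a filter at 10 FPKM, quantile normalization, median-ratio scaling, a fit of just the 6 libraries compared, the replicate number as a block, an adjusted p of 0.01 and leaving out each library.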

Additional observations from a re-analysis of the deposited data

How the results depend on the processing

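Of the alternatives, none turned the sign of a called member, and Yap1, Wwtr1, Tead1, Stk4, Lats2 and Nf2 kept their calls after Yap siRNA in all 17. Log2 changes there ranged from -1.17 to -1.07 for Lats2 and from -1.09 to -0.72 for Tead1. After Llgl1/2 siRNA the number of members called, 2, went to 1 with median-ratio scaling and with an adjusted p of 0.01, and ranged from 1 to 2 when a library was left out. Wwtr1 stayed called in each of these, and the call lost was that of Nf2. Why the Nf2 call depended on the scaling and on single libraries was not tested. The count over all genes, 4338, was 2801 at the stricter threshold, and the direct comparison's 6 members became 3, both because fewer genes pass it. Near-zero changes that were not called turned sign: Lats1 after Llgl1/2 siRNA (-0.018 with median-ratio scaling, -0.056 to 0.089 when a library was left out), Lats2 after Llgl1/2 siRNA (-0.051 to 0.0038 when a library was left out), and Stk3 after Yap siRNA (0.014 with quantile normalization, 0.018 with median-ratio scaling, -0.091 to 0.086 when a library was left out). Same-numbered libraries of different groups deviated together at r = 0.0101 to 0.236 over genes, above 0.1 in 5 of 9 pairs. Differently numbered libraries were at -0.179 to 0.0693, a range that overlaps the first. The labels do not pair the numbers, and the main fit did not take them as pairs. Of 18 best matches 15 were to the same number, a hint from the data that libraries of a number share some structure. With the replicate block 3 members were called after Llgl1/2 siRNA, 8 after Yap siRNA and 6 in the direct comparison, with Tead1 (adjusted p = 0.0397) and Sav1 (0.0428) added, and 4721, 5558 and 5452 genes in all. FPKM carries no read totals, so counting error is unknown.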
